A study of Mus musculus with 26 samples.

Results

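Chemokines are small secreted proteins that direct the migration of leukocytes, and 10 genes that encode them in the stroma and vessels of the eye are described here. They were *Ccl2*, *Ccl7*, *Ccl8*, *Ccl11*, *Cxcl1*, *Cxcl2*, *Cxcl10*, *Cxcl12*, *Cxcl14*, and *Cx3cl1*, 10 of the 16426 genes in each single-cell table and 10 of the 17623 genes in each bulk table. The genes were picked with their cluster levels and bulk group means in view, so these values describe the genes and carry no test. The name of the group held for part of it. Stromal clusters had the highest level of 7 of the genes in the B6129PF1/J library and of 6 in the C57BL/6J library, endothelial clusters had the highest level of *Cx3cl1* in both, and *Ccl8* and *Cxcl2* were highest in the hematopoietic cluster in both. With every cell thinned to 1700 UMIs the stromal counts were 6 and 4, because *Ccl2* (B6129PF1/J), *Ccl7*, and *Cxcl10* (C57BL/6J) then had their highest level elsewhere.

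CC, CXC, and CX3C chemokines are named after the spacing of their first cysteines, and each acts through G protein–coupled receptors on the responding cell. Some, such as CXCL12, are made constitutively by stroma and hold CXCR4-bearing cells in place, whereas CXCL1, CXCL2, CCL2, and CXCL10 are classical products of NF-κB and interferon signaling in activated tissue. The choroid, the vascular bed that nourishes photoreceptors through the retinal pigment epithelium (RPE), holds resident macrophages, mast cells, and other leukocytes among its fibroblasts and pericytes.

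The study compared cell types of mouse RPE/choroid by single-cell RNA sequencing (scRNAseq), and asked with bulk RNA sequencing what endothelial Indian hedgehog (*Ihh*) and Hedgehog signaling do in this tissue. One scRNAseq library was made per strain, B6129PF1/J and C57BL/6J, from 3-month-old animals, each from 2 pooled eyes (1 male and 1 female), so cells are not replicates and no test between strains is possible. The bulk knockout groups, each of 3 libraries, were RPE/choroid of 6-month-old C57BL/6J mice taken 12 weeks after tamoxifen: Ihh iΔEC/iΔEC mice, in which floxed *Ihh* was deleted with the endothelial Cdh5-CreERT2 driver, and Ihh+/+ controls that carried the same driver and received tamoxifen too. Cultured GLI1+ cells were GFP+ cells sorted from RPE/choroid of Gli1 GFP/+ mice (6 pooled females; the labels give SWR/J, and per the methods the line was outcrossed to BALB/c), expanded as 1 population, and given DMSO or 100 nM SAG, a Smoothened agonist that activates the Hedgehog pathway, for 24 h, with 3 libraries per group. The bulk tables give expression as the authors' group means, with no value per library, so the spread between libraries is unknown and no p-value is given.

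The B6129PF1/J library held 3637 cells and 17168578 unique molecular identifiers (UMIs), and the C57BL/6J library 3928 cells and 15230413 UMIs; the median was 3881 and 3174 UMIs per cell. Below, a pair of values separated by "and" is given in the order B6129PF1/J, C57BL/6J unless other groups are named, and levels are UMIs of the gene per 10,000 UMIs of a cluster. Poisson and Clopper-Pearson 95% intervals cover counting error only. The libraries shared 22 cell barcodes, and 35 and 33 cells held both *Xist* and *Ddx3y*, a sign of a male–female doublet; leaving out either set left all 20 leading levels within their counting intervals. Most marker genes were highest in the deposited cell type they mark, but the Schwann marker *S100b* and the mast cell marker *Kit* were highest in melanocyte cluster 10 in both libraries. Of the pericyte markers, *Pdgfrb*, *Kcnj8*, and *Notch3* were highest in stromal cluster 6 in both libraries and *Rgs5* in B6129PF1/J only (95.9 and 92.95 UMIs per 10,000, against 92.4 and 99.3 in smooth muscle cluster 9), whereas fibroblast markers were highest in clusters 7 and 8. Hematopoietic cluster 11 held the macrophage markers, and the mast cell genes *Cma1* and *Cpa3* were at 7.24 and 6.13 UMIs per 10,000 there in the C57BL/6J library and at or near 0 in the B6129PF1/J library. The C57BL/6J levels came from only 3 cells with *Cma1* and 2 with *Cpa3* out of 127. In B6129PF1/J *Cma1* was found in 2 of 106 cells.

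The genes lie on chromosomes 5, 6, 8, 11, and 13. The promoters of *Cxcl1*, *Cxcl2*, and *Cxcl10* are printed because these genes share a chromosome and κB motifs, whereas *Cxcl1* and *Cxcl10* were mainly stromal and *Cxcl2* mainly hematopoietic. *Cxcl1* (chr5:90891241-90893115) and *Cxcl2* (chr5:90903871-90905938) are neighbors on the plus strand with a gap of 10.8 kb (GENCODE vM21 positions, GRCm38), and *Cxcl10* lies further along on the minus strand (chr5:92346638-92348889). The RefSeq promoter table (GRCm38.p6) held 7 of the 10 genes, all but *Ccl2*, *Ccl7*, and *Ccl11*. In the sequences below, read 5′ to 3′ on the gene's own strand up to the base before the RefSeq start, capitals mark matches to the κB consensus and, in *Cxcl10* only, to a form of the interferon-stimulated response element (GAAA, any 2 bases, GAAA).
Cxcl1 promoter, chr5:90891115-90891244, plus strand: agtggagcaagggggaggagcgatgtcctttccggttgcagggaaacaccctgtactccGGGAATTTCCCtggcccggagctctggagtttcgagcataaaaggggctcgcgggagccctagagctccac
Cxcl2 promoter, chr5:90903769-90903898, plus strand: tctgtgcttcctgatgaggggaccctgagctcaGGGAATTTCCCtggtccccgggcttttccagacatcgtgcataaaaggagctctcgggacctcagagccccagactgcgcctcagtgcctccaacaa
Cxcl10 promoter, chr5:92348890-92349139, minus strand: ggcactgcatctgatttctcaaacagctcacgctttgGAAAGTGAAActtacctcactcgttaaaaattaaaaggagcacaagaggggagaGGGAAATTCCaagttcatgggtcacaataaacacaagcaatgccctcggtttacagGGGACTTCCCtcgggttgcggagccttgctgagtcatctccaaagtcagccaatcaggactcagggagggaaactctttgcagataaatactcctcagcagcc
The run of capitals in *Cxcl1* and in *Cxcl2* is the same 11 letters and holds overlapping matches on the plus and minus strands; it begins 71 bases before the start of *Cxcl1* and 97 bases before that of *Cxcl2*. *Cxcl10* held GAAAGTGAAA from 213 bases and GGGAAATTCC and GGGACTTCCC from 159 and 103 bases before its start. *Cxcl14*, whose promoter is not printed, also held a match to the interferon element, from 172 bases before its start. Of 32851 promoters of 250 bases, searched on both strands, 3.9% held the κB consensus and 2.98% the interferon element. A GLI motif (GACCACCCA), present in 0.225% of promoters, was found in none of the 7 genes. A match describes these letters and is not evidence of binding.

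*Cxcl12*, the ligand of CXCR4 and of the scavenging receptor ACKR3, was the broadest of the stromal genes. Its level was 22.4 and 17.9 UMIs per 10,000 in stromal cluster 5, 20.6 and 15.6 in cluster 8, 15.3 and 12.0 in cluster 6, and 5.86 and 4.94 in cluster 7. Nearly every cell of cluster 5 held a *Cxcl12* UMI (832 of 848 and 810 of 839 cells), and 224 and 212 of those cells were needed to make up 50% of the UMIs of the cluster. Endothelial clusters followed an order of their own: *Cxcl12* was at 0.782 and 1.42 in cluster 2, 4.35 and 5.55 in cluster 3, and 5.25 and 5.38 in cluster 4. The intervals of cluster 2 lay below those of clusters 3 and 4 in both libraries, and those of clusters 3 and 4 overlapped in both (4.09 to 4.62 and 4.499 to 6.10 in B6129PF1/J, 5.27 to 5.84 and 4.62 to 6.23 in C57BL/6J). Of RPE cells, 7.62% and 7.49% held a *Cxcl12* UMI, against 21.9% and 30.5% in endothelial cluster 2 and 65.3% and 69.2% in cluster 3.

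**Figure D1:**
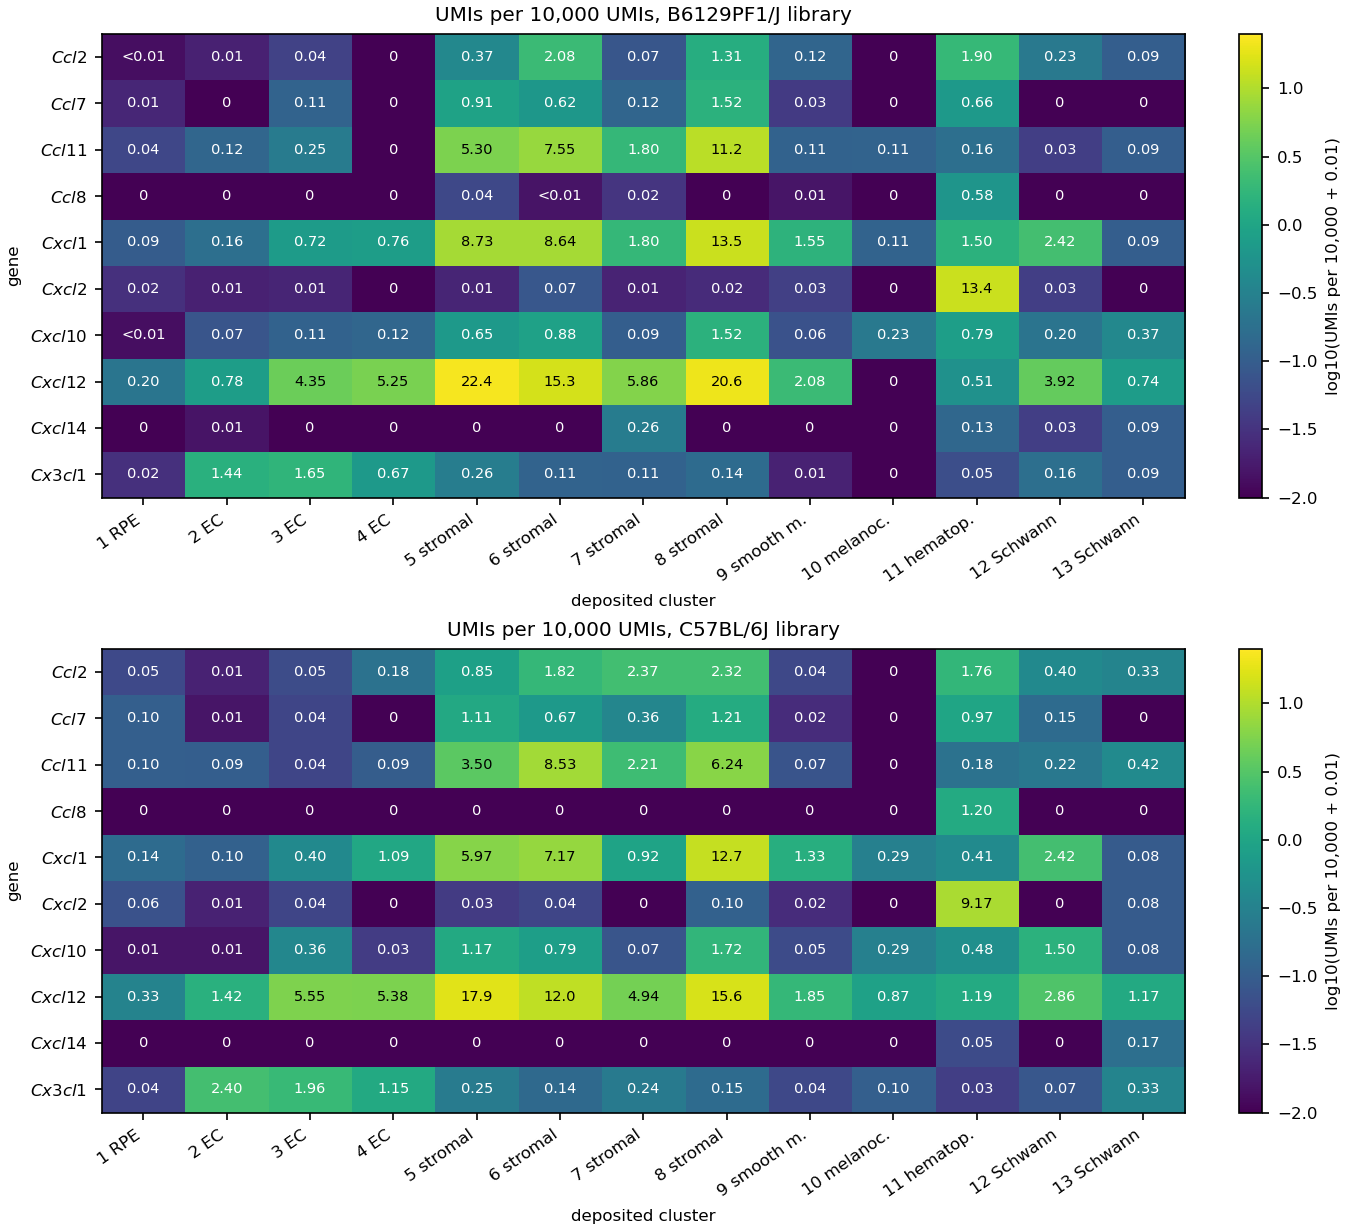
UMIs per 10,000 UMIs of each gene (rows) in each deposited cluster (columns) in the B6129PF1/J (top) and C57BL/6J (bottom) libraries, 1 library per strain; color is log10 of the level plus 0.01, and numbers are the levels. Most genes peak in stromal clusters 5 to 8, *Cx3cl1* in endothelial clusters 2 and 3, and *Ccl8* and *Cxcl2* in hematopoietic cluster 11 (*Cxcl2* at 13.4 and 9.17).

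*Cxcl1* and *Cxcl2*, ligands of the neutrophil receptor CXCR2, were divided between stroma and leukocytes. *Cxcl1* reached 13.5 and 12.7 UMIs per 10,000 in stromal cluster 8, 8.73 and 5.97 in cluster 5, and 8.64 and 7.17 in cluster 6, and stromal cells held 89.0% and 87.6% of all its UMIs. Pericyte-marker cluster 6 and cluster 5 overlapped in their intervals in B6129PF1/J (8.25 to 9.06 and 8.40 to 9.06). Outside the stroma, *Cxcl1* was at 2.42 in Schwann cluster 12 of both libraries and at 1.55 and 1.33 in smooth muscle cells.
*Cxcl2* showed the opposite distribution, with 733 of its 772 UMIs and 556 of its 605 UMIs in hematopoietic cluster 11, a level of 13.4 and 9.17. Those UMIs came from 25 of 106 cells and 34 of 127 cells. A single cell held 147 of them in B6129PF1/J and 201 in C57BL/6J, and without that cell the level was 10.9 and 5.92. In the stromal clusters together *Cxcl2* was at 0.0313 and 0.0366.

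**Figure D2:**
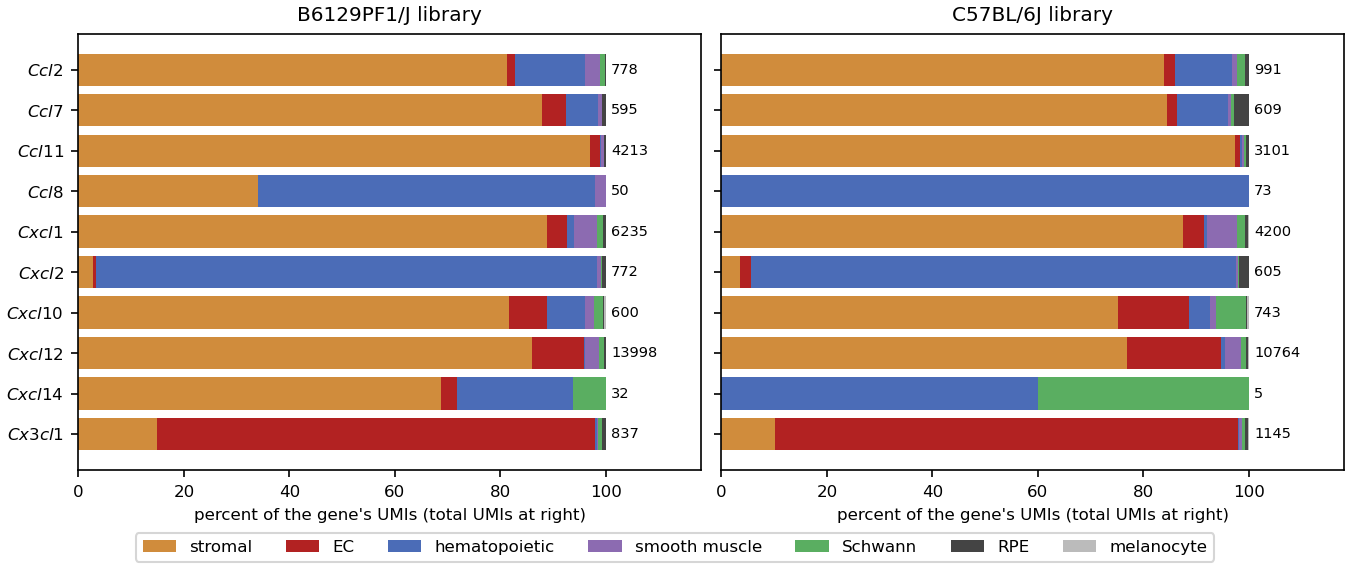
Percent of each gene's UMIs found in each deposited cell type (colors), by library; the gene's total UMIs stand at the right of each bar, and a share depends on the number of cells of a type as well as on its level. Stromal cells held 75.2% or more of the UMIs of *Ccl2*, *Ccl7*, *Ccl11*, *Cxcl1*, *Cxcl10*, and *Cxcl12* in both libraries, and *Ccl8* and *Cxcl14* rest on 73 UMIs or fewer per library.

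The CC chemokines *Ccl2*, *Ccl7*, *Ccl11*, *Ccl12*, and *Ccl8* lie in this order on the plus strand within 81.2 kb of chromosome 11 (chr11:82035571-82116799, GRCm38). Stromal cells held most UMIs of the first 3, and hematopoietic cells held most UMIs of the last 2. These shares depend on the number of cells of a type, and levels did not divide in the same way. *Ccl2* was at 1.90 and 1.76 in hematopoietic cells, against 0.945 and 1.45 in the stromal clusters together. For *Ccl7* the levels were 0.658 and 0.973, against 0.781 and 0.896. *Ccl11*, which encodes eotaxin and attracts eosinophils through CCR3, was at 11.2 and 6.24 in cluster 8, 7.55 and 8.53 in cluster 6, and 5.30 and 3.50 in cluster 5. Stromal cells held 97.0% and 97.4% of *Ccl11* UMIs, and the leading cluster differed between the libraries (8 in B6129PF1/J, 6 in C57BL/6J).
*Ccl2*, the main monocyte chemoattractant and a ligand of CCR2, was at 2.08 and 1.82 in pericyte-marker cluster 6 and at 1.31 and 2.32 in cluster 8. Its level in hematopoietic cluster 11 was 1.90 and 1.76, within the counting interval of cluster 6. In cluster 7 *Ccl2* was at 0.0707 and 2.37, but 134 of the 139 UMIs of the C57BL/6J value came from 1 cell, and without it the value was 0.0863. *Ccl7*, which attracts monocytes through CCR2 and other receptors, was at 1.52 and 1.21 in cluster 8, 0.913 and 1.11 in cluster 5, 0.622 and 0.668 in cluster 6, and 0.658 and 0.973 in cluster 11. At these counts the C57BL/6J intervals of *Ccl7* in clusters 5, 8, and 11 overlapped, and no order among them can be read.

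Further along the locus, *Ccl12*, a further CCR2 ligand of the mouse that is not among the 10 genes, had 20 of 22 UMIs and 66 of 66 UMIs in hematopoietic cells. *Ccl8*, a ligand of CCR8 in the mouse, had 32 of 50 and 73 of 73 UMIs in cluster 11, from 6 and 9 cells. Of the 14 *Ccl8* UMIs in stromal cluster 5 of B6129PF1/J, 12 came from 1 cell that held both *Xist* and *Ddx3y*. In the stromal cells of C57BL/6J *Ccl8* had no UMI, which allows a level of up to 0.00523 UMIs per 10,000.

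**Figure D3:**
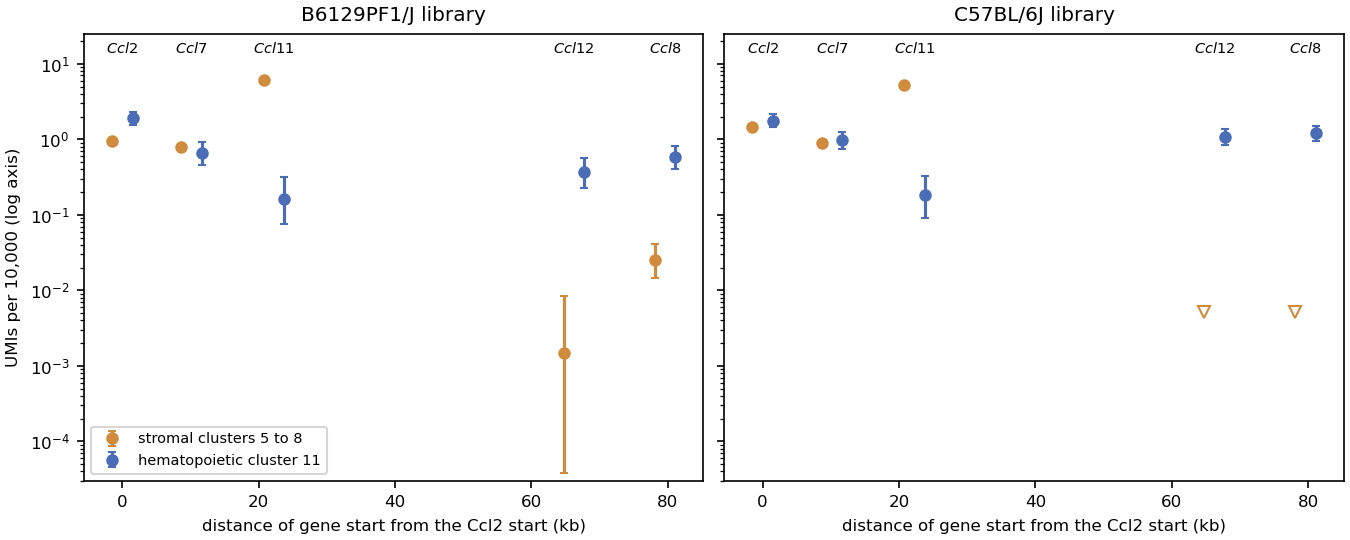
Level in UMIs per 10,000 (log axis, Poisson 95% interval) of 5 chemokine genes against the distance of the gene start from that of *Ccl2* (kb), in stromal clusters 5 to 8 and hematopoietic cluster 11; points are set slightly apart for legibility, and open triangles mark the limit that 0 UMIs allow (3 counts). Stromal levels of *Ccl11* were 6.10 and 5.26, and those of *Ccl12* and *Ccl8* were 0.0254 or lower in both libraries.

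*Cxcl10*, an interferon-inducible ligand of the T cell receptor CXCR3, was at 1.52 and 1.72 in cluster 8, 0.876 and 0.789 in cluster 6, and 0.652 and 1.17 in cluster 5. Endothelial cells held 7.17% and 13.5% of *Cxcl10* UMIs, the most of any of the mainly stromal genes apart from *Cxcl12* (9.79% and 17.9%). *Cxcl14*, a chemokine of epithelia and fibroblasts, was close to the detection limit in the single-cell libraries, with 32 and 5 UMIs in all. In cluster 7 of B6129PF1/J 22 *Cxcl14* UMIs lay in 11 cells, a level of 0.259, whereas the same cluster of C57BL/6J held none, so its cell type is set by 1 library.

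*Cx3cl1*, which encodes fractalkine, a membrane-bound ligand that ADAM proteases shed and that CX3CR1-bearing macrophages recognize, was the only endothelial gene of the 10. Its level was 1.44 and 2.404 in cluster 2, 1.65 and 1.96 in cluster 3, and 0.672 and 1.15 in cluster 4, and endothelial cells held 83.0% and 87.7% of its UMIs. *Cx3cl1* and *Cxcl12* thus differed in their order among endothelial clusters: cluster 2 was high for *Cx3cl1* and low for *Cxcl12*. A *Cx3cl1* UMI was found in 38.6% and 52.6% of cells of cluster 2 and in 42.6% and 42.1% of cluster 3, against 1.47% and 1.87% of RPE cells. In stromal cluster 5 its level was 0.265 and 0.253, spread thinly over 80 and 67 cells with at most 2 UMIs each.

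The receptors and remaining ligands placed these genes in the tissue. *Ccr2*, the receptor of CCL2 and CCL7, had 92 of 93 and 151 of 155 UMIs in hematopoietic cells, *Cx3cr1* had 53 of 56 and 86 of 86, and *Cxcr3* had 14 of 14 and 22 of 22. *Ackr3* was highest in smooth muscle cells, at 1.92 and 1.38 UMIs per 10,000, with 50.2% and 49.2% of its UMIs there. *Adam10*, a sheddase of fractalkine, had 50.5% and 51.5% of its UMIs in endothelial cells. Among ligands outside the group, *Ccl19* (96.4% and 94.2%) and *Cxcl5* (100% of 66 and of 39 UMIs) were stromal, and *Ccl6* (97.1% and 96.8%) and *Ccl9* (92.0% and 94.5%) were hematopoietic.

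In cluster 5, 50% of the *Cxcl1* UMIs lay in 71 of 848 cells and 56 of 839 cells, and in cluster 6, 50% of the *Ccl11* UMIs lay in 48 of 541 and 46 of 603. For *Ccl2* in cluster 6 the numbers were 12 and 23 cells, for *Ccl7* in cluster 5 they were 15 and 12, and for *Cxcl10* in cluster 5 they were 9 and 16. The same stromal cells tended to hold several of them. After each cell was thinned to 1700 UMIs, so that depth was equal, *Ccl7* was found in 21.8% of stromal cells with *Ccl2* and in 4.06% of those without in B6129PF1/J, and in 17.4% and 4.88% in C57BL/6J. *Cxcl1* was found in 65.5% of cells with *Ccl2* and 38.2% of those without in B6129PF1/J, and in 55.9% and 28.1% in C57BL/6J. The intervals of these pairs lay apart in both libraries. *Cxcl10* and *Cxcl1* behaved likewise: 62.9% of cells with *Cxcl10* held *Cxcl1*, against 38.9% of the rest, in B6129PF1/J, and 55.7% against 28.8% in C57BL/6J. *Cx3cl1* did not follow, at 3.64% with *Ccl2* and 3.20% without in B6129PF1/J and 3.11% and 2.56% in C57BL/6J, with intervals that overlapped. All these shares pool clusters that differ in detection. In thinned B6129PF1/J cells, *Cxcl1* was found in 53.1% of cluster 8 and 16.2% of cluster 7. *Ccl2* was found in 12.6% of cluster 6 and 0.541% of cluster 7. The part of cluster mixing in the pooled shares was not tested.

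**Figure D4:**
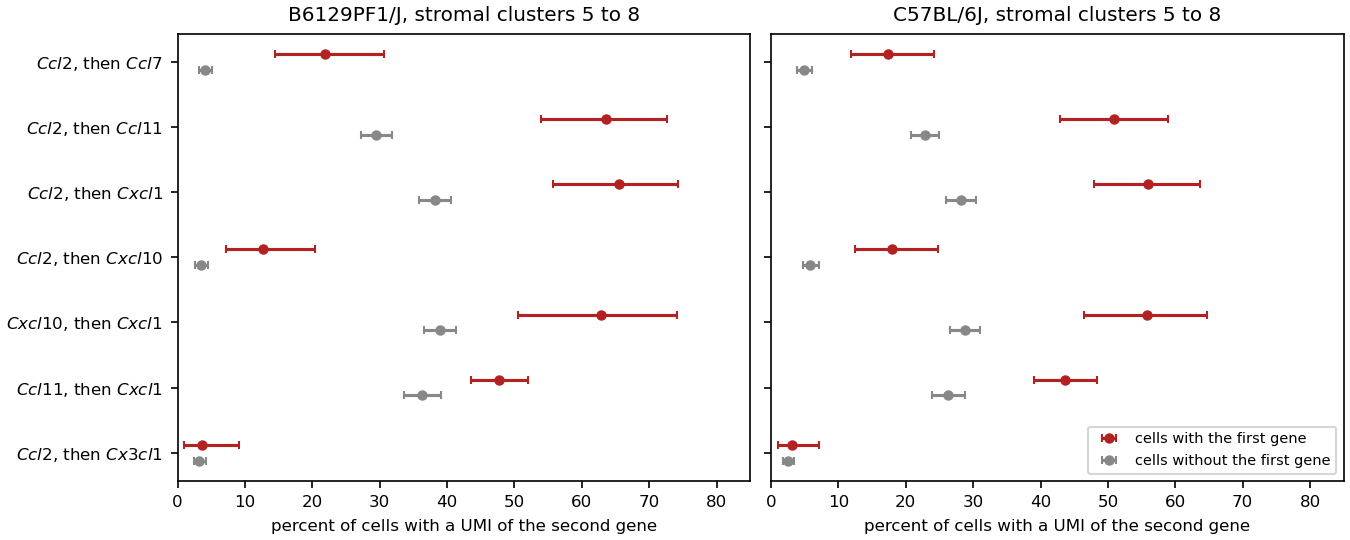
Percent of stromal cells (clusters 5 to 8, each cell thinned to 1700 UMIs) with a UMI of the second gene among cells with (red) and without (gray) the first gene, with Clopper-Pearson 95% intervals, by library. The intervals are apart for 6 of the 7 pairs drawn in both libraries, and overlap for *Ccl2* with *Cx3cl1*.

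The pair *Ccl2* and *Ccl7* was also found together within cluster 5. After thinning, *Ccl7* was found in 26.7% of cells with *Ccl2* against 4.77% of cells without in B6129PF1/J, and in 24.6% against 5.37% in C57BL/6J. Levels of early-response genes were set side by side for cells with and without a chemokine. The share of all genes higher in such cells was not computed, so these counts have no background. Of 9 NF-κB early-response genes, 8 and 7 had a higher level in cluster 5 cells with *Cxcl1* than in those without (5 and 6 with intervals apart). In cluster 6, 9 and 9 did (5 and 6 with intervals apart). Median ratios were 1.38 and 1.502 in cluster 5 and 1.62 and 1.51 in cluster 6. Of the NF-κB genes, *Irf1*, a transcription factor of interferon and NF-κB signaling, was at 2.91 in B6129PF1/J cluster 5 cells with *Cxcl1* and at 1.75 in those without, and at 4.33 and 2.36 in C57BL/6J. Of 9 genes known to rise when tissue is dissociated, 9 and 9 were higher in *Cxcl1* cells of cluster 5 and 8 and 8 in those of cluster 6, with median ratios of 1.26 and 1.32, and of 1.12 and 1.403. Intervals of these genes were apart for 7 and 8 in cluster 5 and for 6 and 8 in cluster 6. In cluster 8, where *Cxcl1* was highest, 5 and 7 of the 9 NF-κB genes (median ratios 1.065 and 1.24) and 5 and 8 of the 9 dissociation genes (1.01 and 1.29) were higher in cells with *Cxcl1*. There, intervals were apart for only 0 and 1 of the NF-κB genes and for 1 and 6 of the dissociation genes. *Fos* was at 73.4 against 57.9 in B6129PF1/J cluster 5 and at 82.9 against 62.8 in C57BL/6J. In cells with *Ccl11* the same NF-κB list had 5 of 9 genes higher in cluster 6 of both libraries (median ratios 1.09 and 1.06), and 8 and 5 of 9 in cluster 5 (1.25 and 1.06). The part of tissue digestion in these levels was not tested.

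Within hematopoietic cluster 11, macrophage genes were found more often in cells with *Ccl8* or *Cxcl2*. All 6 and all 9 cells with *Ccl8* held *Csf1r*, *C1qa*, and *Pf4*, and none held *Ccr2*, which was found in 37.0% and 37.3% of the other cells. *C1qa* was found in 88.0% and 88.2% of cells with *Cxcl2* and in 21.0% and 24.7% of those without. For *Ccl2* the contrast was smaller, with *C1qa* in 62.9% and 61.8% of cells with the gene and 23.9% and 34.4% of the rest. For the remaining genes, each held by 8 to 16 cells of a library, *C1qa* was found in 50% and 75% of cells with *Ccl7* against 35.1% and 36.9% of the rest, in 41.7% and 75% of those with *Cxcl10* against 36.2% and 39.5%, and in 76.9% and 50% of those with *Cxcl1* against 31.2% and 41.0%. For *Cxcl10* and *Cxcl1*, *Mrc1* and *Cd163* differed in direction between the libraries. *Mrc1* was found in 50% and 25% of cells with *Cxcl10*, against 22.3% and 31.9% of the rest. It was found in 30.8% and 30% of those with *Cxcl1*, against 24.7% and 31.6%. Cells were not thinned here, and those with *Cxcl1* had a median of 5677 and 6935 UMIs against 4847 and 3845.

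Across the 26 cluster and library values, the gene with the most similar pattern to each chemokine was sought among 7564 genes, by Pearson's r on a log scale. These are descriptions: clusters share libraries and depth, and cells were clustered on such genes. *Ccl7* was closest to *Plac8* (0.94) and *Igf1* (0.89), *Ccl2* to *Plac8* (0.87) and *Fam46a* (0.85), *Ccl11* to *Aldh1a2* (0.95) and *Edn3* (0.94), and *Cxcl12* to *Mgp* (0.91) and *Plat* (0.90). *Ccl8* was closest to *Ms4a7* (0.99) and *Wfdc17* (0.99), and *Cxcl2* to *Ms4a6c* (0.99) and *C1qa* (0.98). *Cx3cl1* was closest to *Igfbp3* (0.95) and *Fam101b* (0.94). The rest were *Cxcl1* with *Setbp1* (0.88) and *Flt3l* (0.87), *Cxcl10* with *Fam46a* (0.75) and *Ccl7* (0.75), and *Cxcl14*, on few UMIs, with *Mboat7* (0.72) and *Metrnl* (0.71).

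The strains were set side by side cluster by cluster, calling a gene with at least 20 UMIs in both libraries together when its levels differed by 1.5-fold or more. In cluster 5, 2 of 7 chemokines with enough UMIs were higher in C57BL/6J, where 6.76% of all genes were: *Ccl2* (0.372 and 0.849) and *Cxcl10* (0.652 and 1.17). *Ccl11* (5.30 and 3.50) was higher in B6129PF1/J, 1 of 7 beside 7.17% of all genes. In cluster 8 *Ccl2* was again higher in C57BL/6J (1 of 6, beside 11.9%) and *Ccl11* in B6129PF1/J (1 of 6, beside 11.8%). Cluster 6 did not repeat this: 0 of 8 were higher in C57BL/6J (8.72% of all genes), and the 1 of 8 higher in B6129PF1/J (7.05%) was *Cxcl2* with 15 and 8 UMIs. In cluster 7, 3 of 7 were higher in C57BL/6J (11.5%), among them *Ccl2* through its single cell, and 2 of 7 in B6129PF1/J (10.6%).
Endothelial cluster 2 of C57BL/6J was higher for 2 of 4 chemokines (8.89% of all genes), *Cxcl12* and *Cx3cl1*, 1.81-fold and 1.67-fold, and *Cxcl1* was higher in B6129PF1/J (1 of 4, 6.97%). In endothelial cluster 3, *Cxcl10* was 3.38-fold higher in C57BL/6J (1 of 7, 6.5%), and *Ccl7*, *Ccl11*, and *Cxcl1* were higher in B6129PF1/J (3 of 7, 7.72%); 15 of the 27 *Ccl7* UMIs of B6129PF1/J came from 1 cell, and without it the level was 0.0499 against 0.0408 in C57BL/6J, less than 1.5-fold apart (0.0223 in C57BL/6J without its own top cell). In hematopoietic cluster 11, *Ccl8* (2.06-fold) and *Cxcl12* (2.32-fold) were higher in C57BL/6J, 2 of 8 beside 23.7% of all genes, and *Cxcl1* (3.63-fold) and *Cxcl10* (1.64-fold) in B6129PF1/J, 2 of 8 beside 7.68%. For *Cxcl1*, 35 of 82 UMIs of B6129PF1/J came from 1 cell. For *Cxcl10*, 15 of 29 UMIs of C57BL/6J came from 1 cell that held both *Xist* and *Ddx3y*. Without the top cell of each library, *Cxcl1* was at 0.871 and 0.265 and *Cxcl10* at 0.57 and 0.23. The mast cell genes given above differed in level between the same libraries through 3 cells or fewer, and their part was not tested. *Cxcl10* in Schwann cluster 12 was at 0.196 and 1.504 (1 of 3 higher in C57BL/6J, 11.4%). In RPE cells 4 of 4 were higher in C57BL/6J (8.83% of all genes) and 0 of 4 in B6129PF1/J (8.92%): *Ccl7*, *Ccl11*, *Cxcl1*, and *Cxcl12*, all at 0.326 UMIs per 10,000 or less. Of the C57BL/6J UMIs there, 12 of 17 for *Ccl7*, 12 of 17 for *Ccl11*, and 13 of 25 for *Cxcl1* came from the cell with the most UMIs of that gene. The top cells of *Ccl7* and *Cxcl1* both held 6920 UMIs in total and may be the same cell, and that of *Ccl11* held both *Xist* and *Ddx3y*. Without the top cell of each library, *Ccl11* was at 0.0301 and 0.0291 and *Cxcl1* at 0.0670 and 0.0689. *Ccl7* was at 0.0287 in C57BL/6J without its top cell, against 0.0133 in B6129PF1/J from 4 UMIs. In smooth muscle cells *Ccl2* and *Ccl11* were higher in B6129PF1/J (2 of 5, 9.43%), with 21 and 8 and with 19 and 12 UMIs, and 0 of 5 in C57BL/6J (7.88%). *Cx3cl1* was higher in C57BL/6J in endothelial cluster 4 (1 of 3, 11.8%), and *Cxcl12* in Schwann cluster 13 (1 of 1, 13.5%), with 22 and 38 and with 8 and 14 UMIs. The intervals of these last 4 pairs overlapped. So did those of *Cxcl1* in cluster 2, *Cxcl2* in cluster 6, *Cx3cl1* in cluster 7, and *Cxcl10* in cluster 11. In RPE cells the intervals of *Ccl11*, *Cxcl1*, and *Cxcl12* overlapped too. With 1 library each, strain, eye, and preparation cannot be told apart.

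Cells in which only *Xist* or only *Ddx3y* was found could also be assigned to the female or male eye of a library, 1 eye each. Over all clusters, 1735 cells held *Xist* and no *Ddx3y* against 491 with *Ddx3y* and no *Xist* in B6129PF1/J, and 1746 against 497 in C57BL/6J. Many of the 3637 and 3928 cells held neither gene, and detection of the 2 genes can differ. These numbers are therefore not the cells per eye, and the paper assumes equal numbers of male and female cells. Cluster 8 held 125 against 11 such cells in B6129PF1/J and 126 against 7 in C57BL/6J, out of 160 in each library. The lead of cluster 8 for *Ccl7*, *Cxcl1*, and *Cxcl10*, and for *Ccl11* in B6129PF1/J, thus rests mostly on 1 eye per library. *Ccl11* was lower in cells with *Ddx3y* and no *Xist* than in cells with *Xist* and no *Ddx3y* in the 3 stromal clusters where it was highest: 4.65 against 5.69 in cluster 5, 6.07 against 7.42 in cluster 6, and 7.34 against 12.5 in cluster 8 of B6129PF1/J. In C57BL/6J the values were 2.37 against 4.61, 6.46 against 10.1, and, from only 7 cells with *Ddx3y*, 0.365 against 7.36. *Cxcl1* had the same sign in each, for example 7.04 against 9.23 in cluster 5 of B6129PF1/J and 5.19 against 7.24 in that of C57BL/6J. Its intervals overlapped in cluster 8 of B6129PF1/J (9.57 against 13.5) and in cluster 6 of C57BL/6J (6.68 against 6.98). Those of *Ccl11* overlapped in clusters 5 and 6 of B6129PF1/J. With 1 eye per sex and strain, sex and eye cannot be told apart.

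In bulk RPE/choroid, loss of endothelial *Ihh* was visible in the targeted gene. *Ihh* was at 1.53 FPKM in Ihh+/+ and 0.454 in Ihh iΔEC/iΔEC tissue, a log2 ratio of −1.56 (each log2 ratio is of group mean FPKM plus 0.1, so it understates the change of low genes). Its targets *Gli1* (9.40 and 3.15 FPKM) and *Hhip* (1.05 and 0.346) were past 2-fold too, and *Ptch1* was at 7.69 and 4.98. In bulk tissue, fewer cells of a type and less RNA per cell cannot be told apart.
Of the 10 chemokines, 9 reached 1 FPKM in a group. None was 2-fold higher in Ihh iΔEC/iΔEC (1.03% of 11411 genes were) and 2 were 2-fold lower (0.648% of genes were), *Ccl8* and *Cxcl14*. *Ccl8* was at 3.22 FPKM in Ihh+/+ and 0.850 in Ihh iΔEC/iΔEC (log2 ratio −1.81), and *Cxcl14* at 4.11 and 1.18 (−1.72). The single-cell stroma held 17 and 0 UMIs of *Ccl8* and 22 and 0 of *Cxcl14*. Beside them, the 4 macrophage markers summed to 120 and 111 FPKM (*Csf1r* 48.0 and 52.5, *C1qa* 68.0 and 56.4, *Mrc1* 3.35 and 2.23, *Cd163* 0.418 and 0.195), *Pf4* was at 5.71 and 3.69, the mast cell marker *Cma1* was at 1.64 and 0.470, and the 3 photoreceptor markers, all past 2-fold lower, summed to 48.1 and 15.4; the part of retained retina or of leukocytes in the chemokine values was not tested.

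The mainly stromal chemokines apart from *Cxcl12* had higher means in Ihh iΔEC/iΔEC tissue, all within 2-fold. *Ccl2* was at 1.05 FPKM in Ihh+/+ and 2.04 in Ihh iΔEC/iΔEC (log2 ratio 0.89), *Cxcl1* at 3.28 and 5.64 (0.77), and *Ccl7* at 1.04 and 1.76 (0.70). *Cxcl10* was at 0.850 and 1.39 (0.65) and *Ccl11* at 6.16 and 9.04 (0.55), against a median of −0.04 over all genes tested. The fibroblast markers went the other way, with 4 of 4 lower and a sum of 617 FPKM in Ihh+/+ and 395 in Ihh iΔEC/iΔEC. *Cxcl12*, with the highest mean of the 10 in both groups, was at 80.3 and 60.9 FPKM (−0.40), and *Cx3cl1* at 12.7 and 12.5 (−0.03), beside endothelial markers that summed to 162 and 135. *Cxcl2* stayed under the 1 FPKM limit at 0.412 and 0.195.
Among the remaining ligands 11 reached 1 FPKM, and *Ccl3*, a macrophage chemokine, was 2-fold lower (2.80 and 0.899 FPKM). None of 3 conventional receptors, 2 atypical receptors, or 4 proteases that reached 1 FPKM passed 2-fold. Of 8 NF-κB early-response genes only *Socs3* did, and it was lower (16.2 and 4.81 FPKM), and of 6 interferon-response genes none did. Of 9 dissociation-linked genes *Fos*, *Fosb*, and *Jun* were lower and *Atf3* was higher.

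**Figure D5:**
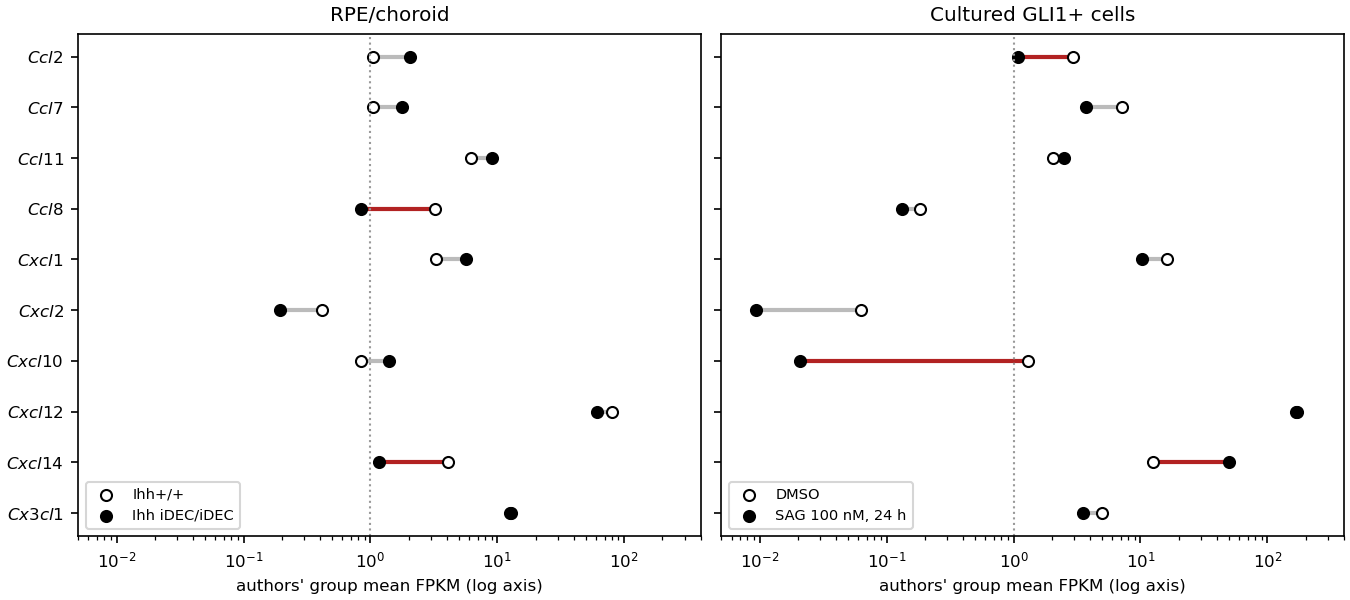
Authors' group mean FPKM (log axis) of the 10 chemokines in bulk RPE/choroid of the knockout comparison (left; Ihh+/+ open, Ihh iΔEC/iΔEC filled; 3 libraries each) and in cultured GLI1+ cells (right; DMSO open, 100 nM SAG filled; 3 libraries each), with the dotted line at 1 FPKM and red where the 2 means differ by 2-fold or more with at least 1 FPKM in the higher one. *Cxcl14* was lower in Ihh iΔEC/iΔEC tissue (4.11 and 1.18) and higher after SAG (12.5 and 49.9).

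In cultured GLI1+ cells SAG acted on the pathway, with *Gli1* at 0.0280 FPKM with DMSO and 3.65 with SAG, *Ptch1* at 1.13 and 10.1, and *Hhip* at 0.368 and 1.28. The cultures had the fibroblast markers (2625 and 2371 FPKM in sum), whereas the endothelial, macrophage, and mast cell markers each summed to 0.567 FPKM or less. Of the 10 chemokines 8 reached 1 FPKM. Of these, 1 was 2-fold higher with SAG (0.368% of 10325 genes were), *Cxcl14*, at 12.5 FPKM with DMSO and 49.9 with SAG (log2 ratio 1.99). Of the 8, 2 were 2-fold lower (1.1% of genes were). *Cxcl10* was at 1.29 and 0.0207 FPKM (−3.53), and *Ccl2* at 2.93 and 1.08 (−1.36). The size of the *Cxcl10* ratio depended on the pseudocount, at −5.41 with 0.01 FPKM and −1.17 with 1 FPKM, since its SAG mean was near 0.
*Ccl7* (7.13 and 3.71 FPKM, −0.93), *Cxcl1* (16.1 and 10.4, −0.63), and *Cx3cl1* (4.98 and 3.52, −0.49) had lower means within 2-fold. *Ccl11* was at 2.06 and 2.51 FPKM (0.27). *Cxcl12* was again the highest of the 10, at 173 FPKM with DMSO and 167 with SAG (−0.05), against a median of 0.06 over all genes tested. *Ccl8* (0.182 and 0.133 FPKM) and *Cxcl2* (0.0623 and 0.00933) were under 1 FPKM in both groups, beside macrophage markers that summed to 0.171 and 0.254 FPKM.

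*Cxcl10* had company among interferon-response genes: 6 of 6 that reached 1 FPKM were 2-fold lower with SAG, *Irf7*, *Isg15* (120 and 15.2 FPKM), *Ifit1*, *Ifit3*, *Gbp2*, and *Rsad2*, with a median log2 ratio of −3.02. Of 7 NF-κB early-response genes none passed 2-fold, and of the 4 remaining ligands that reached 1 FPKM none did; *Cxcl5*, a CXCR2 ligand, was at 50.6 and 29.5 FPKM. None of the conventional receptors reached 1 FPKM in these cells. The atypical receptors *Ackr3* (17.9 and 17.6 FPKM) and *Ackr4* (8.82 and 7.84), which bind chemokines without signaling through G proteins, did so in both groups.
Set side by side, *Ccl2*, *Ccl7*, *Cxcl1*, and *Cxcl10* had higher means without endothelial *Ihh* and lower means with SAG, and *Cxcl14* had a lower mean without *Ihh* and a higher one with SAG. The other 5 had the same sign in both: *Ccl11* (log2 ratios 0.55 and 0.27), *Cxcl12* (−0.40 and −0.05), *Cx3cl1* (−0.03 and −0.49), *Ccl8* (−1.81 and −0.27), and *Cxcl2* (−0.80 and −0.57), of which *Ccl8* was under 1 FPKM in both SAG groups and *Cxcl2* in all 4 groups. Tissue of C57BL/6J mice and cultured cells of mice of another background differ in more than the pathway, and the difference between the comparisons was not tested.

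A further deposited table holds mean FPKM of endothelial cells from 1-month-old B6129PF1/J mice for 99 genes that the authors selected as higher in choroid. *Cxcl1* and *Ccl7* are the members of the group in it. *Cxcl1* was at 126 FPKM in choroid endothelial cells, against 4.41 in neural retina, 12.3 in lung, 1.63 in liver, and 18.99 in heart, and *Ccl7* was at 10.2 against 0.140, 1.98, 0.283, and 0.263. The choroid libraries are not among the samples of this series, and the paper places choroid endothelial data in an earlier deposit. Tissue and series therefore cannot be told apart in these values. In the same choroid column *Rpe65* and *Rgr*, genes of RPE, were at 21.8 and 50.9 FPKM, *Pmel*, a melanocyte gene, at 18.8, and *Gli1* at 3.58. In the single-cell libraries, endothelial clusters 2 to 4 held *Cxcl1* at 0.104 to 1.09 UMIs per 10,000, below stromal clusters 5, 6, and 8. Per the methods, the endothelial cells had been sorted after VE-cadherin was stained intravitally. The part of non-endothelial RNA in the choroid column was not tested.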

How the data were processed

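For scRNAseq, sorted live nucleated cells were processed by the authors with Cell Ranger and Seurat 2.1; the deposited tables hold raw UMI counts per gene and cell, the deposited annotation gives clusters, and its fraction of mitochondrial UMIs per cell (percent of UMIs here) was used as deposited. The tables hold 3637 (B6129PF1/J) and 3928 (C57BL/6J) cells, fewer than the methods state, and no further cell filter or doublet caller was applied. For bulk RNA-seq, reads were aligned with STAR 2.4.0f1 to mm10, and the authors deposited group mean FPKM from Cufflinks 2.0.2; columns with the authors' fold changes and p-values were not used. UMIs were summed per cluster and library (Python 3.11.15, SciPy 1.17.1). Bulk means were compared as log2 of FPKM plus 0.1, with a call at 2-fold and 1 FPKM in the higher group. Because the tables give no value per library, the limma fit planned for values per library was not run. Thinning used 1700 UMIs per cell, and limits for 0 UMIs are 3 counts. The strain call, the bulk call, and the Poisson interval were tested on simulated data, and thinning was checked on some of the real cells. The other steps had no such test.

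All 10 genes are named, with the 2 most similar genes (at least 200 UMIs per library) and listed genes past the call. The genes, lists, and markers were chosen with earlier results of these data known. From the interferon-response list 1 gene is not reported here and was left out of its counts. Nothing says that the cultured replicates came from separate animals. Alternatives were the pseudocount, the filter, the fold limit, scaling, thinning, left-out cells, and cluster weighting.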

Additional observations from a re-analysis of the deposited data

How the results depend on the processing

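Depth limited the single-cell values: thinning to 1700 UMIs lowered the share of C57BL/6J stromal cells with *Ccl2* that also held *Ccl7* from 23.0% to 17.4%, and of those with *Cxcl10* that also held *Cxcl1* from 64.1% to 55.7%. The other 6 co-detection shares stayed within their counting intervals. Thinning moved 10 of 20 leading levels and 22 of 40 stromal and endothelial shares of UMIs past their counting intervals. Weighting clusters equally moved 24 of 40 such shares. Leaving out the cell with the most UMIs moved 10 of 20 leading levels past their counting interval; shared barcodes or cells with *Xist* and *Ddx3y* moved none of 20. At 2-fold in place of 1.5-fold, an alternative chosen after seeing the data, the chemokines called between strains went from 3 to 0 in cluster 2 and from 3 to 1 in cluster 5.

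In the bulk tables the number of calls depended on the limits. At 1.5-fold, 4 chemokines were higher in Ihh iΔEC/iΔEC tissue and 4 were lower with SAG, and over all genes 231 were higher and 275 lower in Ihh iΔEC/iΔEC, and 134 higher and 245 lower with SAG. With a pseudocount of 1, *Ccl2* no longer passed 2-fold with SAG (log2 ratio −0.92), which left 1 chemokine lower, and over all genes 70 were higher and 36 lower in Ihh iΔEC/iΔEC and 18 higher with SAG. With the mean of both groups at 1 FPKM, *Cxcl10* fell out and 1 chemokine was lower with SAG. With no filter on low values, 294 genes were higher and 150 lower in Ihh iΔEC/iΔEC and 73 were higher with SAG. *Cx3cl1* changed sign under median-of-ratios scaling (log2 ratio 0.0067 in Ihh iΔEC/iΔEC). *Ccl8* and *Cxcl14* in Ihh iΔEC/iΔEC and *Cxcl14* with SAG stayed past 2-fold under each of these alternatives.

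No paired analysis was possible because the bulk tables give expression as group means, with no value per library; for the same reason leaving out a replicate was not run, and without values per library no difference between bulk groups can be set against the spread between libraries.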
